A study of Mus musculus with 4 samples.

Results

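Transcripts of 10 annexin and galectin genes were followed in sorted cells of PDGF-B-driven mouse gliomas: Anxa1, Anxa2, Anxa3, Anxa4, Anxa5, Anxa6, Lgals1, Lgals3, Lgals3bp and Lgals8. Each was represented by the probe set, among those annotated to that gene alone, with the highest mean over the 4 arrays, and all 10 were measured among 19937 genes. The late-onset group held cells of high-grade gliomas, with 1 tumour in each of 2 samples, here called tumour 1 and tumour 2. The early-onset group held cells of low-grade gliomas, with a pool of cells from 2 tumours in each of 2 samples, here called pool 1 and pool 2. All 4 samples came from C57/Bl6 mice whose brains had received a retrovirus for PDGF-B and EGFP at embryonic day 14, and the cells profiled had been gated on EGFP in a flow sorter. The virus overexpressed PDGF-B in every sample, so neither group is normal tissue. The labels give no age in days and no cell type that the virus was restricted to.

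Annexins are proteins that bind phosphatidylserine-rich membranes when calcium rises, and they act in membrane repair, vesicle traffic and the control of inflammation. Galectins are lectins that bind beta-galactosides on glycoproteins, inside the cell on damaged vesicles and outside it on surface receptors. In brain tumours both families are known from the tumour cells themselves and from the microglia, macrophages and vessel cells around them.

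The values are log2 probe set summaries by RMA, in which a difference of 1 is a 2-fold difference. Over the 34760 probe sets they ran from 2.17 to 14.8, with array medians from 6.63 to 6.71. Probe sets differ in brightness, so levels are compared between samples and not between genes. Over all probe sets the tumours correlated at r = 0.988 and the pools at 0.992, against 0.972 to 0.974 between groups. The 7 measured oligodendrocyte progenitor markers had a median log2 value of 11.76 in tumour 1 and 11.49 in tumour 2, against 12.09 in pool 1 and 12.12 in pool 2. Olig2, a gene of that list, read 11.93 and 11.89 in the tumours, against 12.09 and 12.12 in the pools. All 7 had a negative log2 fold change, late-onset minus early-onset, from -0.66 for Gpr17 to -0.00093 for Sox10. The 19 measured microglia and macrophage markers had a summed linear level of 2428 and 3875 in the late-onset tumours. In the early-onset pools it was 48434 and 41730, which made the late-onset level 14.3-fold lower. By the limma test described below 18 of the 19 fell, against 8.12% of all genes. The 8 pericyte and fibroblast markers summed to 747 in tumour 1 and 5428 in tumour 2, against 851 and 863 in the pools. Tumour 2 thus stood apart from the other 3 samples in this sum, but not in every gene of it. Rgs5 had a log2 value of 4.78 in tumour 1 and 4.91 in tumour 2, against 5.48 and 5.33 in the pools. RMA lists no value of 0 and no detection call came with the table, so no marker could be called absent. In sorted bulk cells, fewer cells of a type and less RNA per cell cannot be told apart.

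The promoters of 4 of these genes are shown because their transcripts took the contrasting patterns described below: Lgals3bp and Lgals3 fell in late-onset cells, Anxa2 stood higher there without passing the test, and Anxa1 was highest in tumour 2 and lowest in tumour 1. Each line gives the 250 bases before the annotated start, 5′ to 3′ on the gene's strand, from RefSeq on build GRCm38.p6. Capitals mark matches on either strand to 5 motifs: the PU.1 core GAGGAA, the AP-1 motif TGANTCA, the TATA box TATAAA, the GC box GGGCGG and the IRF site AANNGAAA, where N is any base. The last was added after the sequences had been read.
Lgals3bp: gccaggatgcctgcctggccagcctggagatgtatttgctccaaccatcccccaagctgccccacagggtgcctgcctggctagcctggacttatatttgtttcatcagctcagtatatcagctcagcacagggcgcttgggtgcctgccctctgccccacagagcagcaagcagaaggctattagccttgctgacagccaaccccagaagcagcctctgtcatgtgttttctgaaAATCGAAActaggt
Lgals3: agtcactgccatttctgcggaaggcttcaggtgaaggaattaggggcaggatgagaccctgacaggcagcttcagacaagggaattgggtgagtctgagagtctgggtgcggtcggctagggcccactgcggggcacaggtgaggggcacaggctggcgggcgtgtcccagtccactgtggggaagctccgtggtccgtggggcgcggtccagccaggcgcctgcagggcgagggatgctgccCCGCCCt
Anxa2: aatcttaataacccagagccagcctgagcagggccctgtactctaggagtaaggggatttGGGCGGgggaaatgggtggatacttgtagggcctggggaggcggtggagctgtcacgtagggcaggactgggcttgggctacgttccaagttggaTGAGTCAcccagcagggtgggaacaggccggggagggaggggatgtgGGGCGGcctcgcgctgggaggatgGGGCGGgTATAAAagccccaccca
Anxa1: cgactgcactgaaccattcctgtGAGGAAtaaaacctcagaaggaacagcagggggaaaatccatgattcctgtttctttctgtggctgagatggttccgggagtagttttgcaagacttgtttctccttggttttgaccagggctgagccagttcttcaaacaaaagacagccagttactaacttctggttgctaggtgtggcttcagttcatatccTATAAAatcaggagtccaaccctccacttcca

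These windows lie at chr11:118401960-118402209 on the minus strand for Lgals3bp, chr14:47373610-47373859 on the plus strand for Lgals3, chr9:69453433-69453682 on the plus strand for Anxa2 and chr19:20390672-20390921 on the minus strand for Anxa1. Positions count back from the start, with -1 the last base before it. The Lgals3bp window held an IRF site from -14 to -7, a motif found in 21.3% of 32851 promoter windows of the same length. The Lgals3 window held a GC box on the opposite strand from -7 to -2 (32.7% of windows hold this motif) and 13 CpG dinucleotides, against a median of 6 over all windows. The Anxa2 window held an AP-1 motif from -95 to -89 (6.75% of windows), 3 GC boxes, and a TATA box from -17 to -12 (12.4%). The Anxa1 window held a TATA box from -32 to -27 and a PU.1 core from -227 to -222 (23.3%). Promoter entries matched 7 of the 10 genes, and Anxa3, Anxa6 and Lgals1 were the other 3. The windows of Anxa4, Anxa5 and Lgals8, which are not shown, held no match to any of these motifs. Binding was not measured in this study, and these matches describe letters only.

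The comparison asked how these transcripts differ between late-onset high-grade and early-onset low-grade cells. Late-onset cells had more Lgals1 and slightly more Anxa6, and much less Lgals3bp and Anxa3, with smaller falls of Lgals3 and Lgals8. By limma with Benjamini-Hochberg adjustment over all genes, 2 of the 10 genes rose, 4 fell and 4 did not pass. Of all 19937 genes, 14.7% passed, 6.59% as higher and 8.12% as lower in late-onset cells. The groups did not overlap for 8 of the 10 genes, 3 with late-onset cells above and 5 with them below, against 58.9% of all genes (28.5% above and 30.4% below). The median log2 fold change of the 10 was -0.44, against -0.01 over all genes, and genes moved in opposite directions within each family. That median was -0.09 without tumour 1, -1.05 without tumour 2 and -0.28 without pool 1. Every adjusted p below comes from the same limma fit across all genes, with n = 2 per group. The labels call the samples biological replicates.

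**Figure D1:**
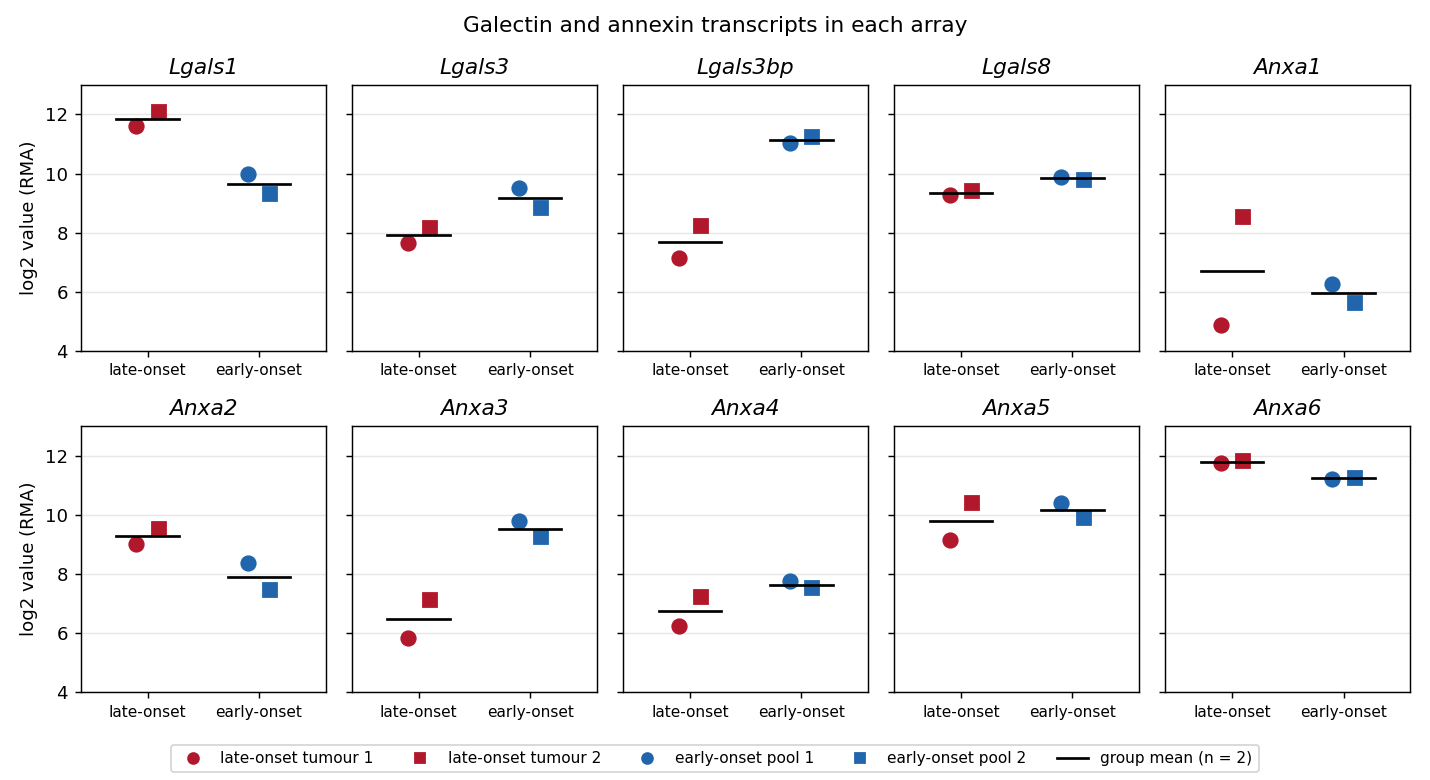
Log2 value (RMA) of each of the 10 genes on each array, with late-onset samples left and early-onset samples right in every panel and a black line at the mean of 2 samples. Lgals1 lies at 11.62 and 12.09 in the tumours, above 9.98 and 9.30 in the pools, Lgals3bp shows the opposite order, and the tumours lie far apart for Anxa1, at 4.86 and 8.52.

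Lgals1 rose most of the 10. It encodes galectin-1, a small secreted lectin known in gliomas for promoting cell migration and dampening T cell responses. Lgals1 had a log2 value of 11.62 in tumour 1 and 12.09 in tumour 2, against 9.98 in pool 1 and 9.30 in pool 2. The lower tumour stood 1.64 above the higher pool, so the groups did not overlap. The means were 11.85 ± 0.33 in late-onset cells and 9.64 ± 0.48 in early-onset cells (SD, n = 2 each), a log2 fold change of 2.21 (95% interval 1.52 to 2.90), or 4.64-fold, with a limma adjusted p of 0.00938. The call held in all 13 alternative fits, in which the log2 fold change ran from 1.87 to 2.56. The genes whose 4 values ran closest to those of Lgals1, by Euclidean distance after each gene's own mean was removed, were Itga8 (distance 0.192) and Itga1 (0.261), which encode integrin alpha chains, and Hmga2 (0.272), which encodes a fetal chromatin protein. Their log2 fold changes were 2.15, 2.09 and 2.09. Log2 fold changes close to that of the member follow from this choice, here and for the closest profiles below.

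Lgals3 fell while Lgals1 rose. It encodes galectin-3, the chimera-type lectin that macrophages and activated microglia make in quantity. Lgals3 had a log2 value of 7.66 in tumour 1 and 8.17 in tumour 2, against 9.50 in pool 1 and 8.82 in pool 2. Both tumours lay below both pools, with a gap of 0.65 between tumour 2 and pool 2. Lgals3 thus differed by a log2 fold change of -1.24 (SE 0.28, adjusted p 0.0433 by limma), close to the threshold. The call was lost without pool 1 (-0.91, adjusted p 0.143), without pool 2 (-1.58, 0.0533) and without tumour 1 (-0.99, 0.101). The closest profiles over the 4 arrays were those of the potassium channel gene Kcna4 (distance 0.154), the chemokine gene Ccl2 (0.183) and the invariant chain gene Cd74 (0.188). The first had a log2 fold change of -1.09 and did not pass (adjusted p 0.0607), and Ccl2 and Cd74 fell by 1.23 and 1.39.

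Lgals3bp fell furthest. It encodes a secreted glycoprotein that binds galectin-3 and is made by macrophages and in interferon responses. Lgals3bp had a log2 value of 7.13 in tumour 1 and 8.24 in tumour 2, against 11.03 in pool 1 and 11.23 in pool 2. The pools lay 0.20 apart, and the higher tumour stood 2.79 below the lower pool. The means were 7.68 ± 0.78 in late-onset cells and 11.13 ± 0.14 in early-onset cells (SD, n = 2 each), a log2 fold change of -3.45 (95% interval -4.36 to -2.54), or 10.9-fold lower, with a limma adjusted p of 0.00639. The call held in all 13 alternative fits, from -4.00 to -2.90. Its closest profiles were those of the lipid carrier gene Apoe (distance 0.256, log2 fold change -3.20), the integrin gene Itgb5 (0.38, -3.36) and the macrophage lysosome gene Cd68 (0.385, -3.62).

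Lgals8 fell slightly. It encodes galectin-8, which carries a pair of different lectin domains and marks damaged vesicles for autophagy. Lgals8 had a log2 value of 9.29 in tumour 1 and 9.42 in tumour 2, against 9.90 in pool 1 and 9.80 in pool 2. The groups did not overlap, and the gap of 0.38 between them was wider than the 0.13 between the tumours and the 0.10 between the pools. Lgals8 thus differed by a log2 fold change of -0.49 (SE 0.11, adjusted p 0.0401 by limma), a 1.41-fold lower level. It passed in 7 of 13 alternative fits and was lost whichever single sample was left out: the adjusted p was 0.202 without pool 1, 0.156 without pool 2, 0.0995 without tumour 1 and 0.0608 without tumour 2, at log2 fold changes from -0.56 to -0.43. After each array's median was subtracted it stood at -0.33 (adjusted p 0.09). That scaling shifts every gene by the same amount, and it moved the median of all genes to 0.15, from -0.01 on the deposited scale. The distance of Lgals8 from the median gene is therefore the same on both scales by construction, which is no support for the call.

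Anxa3 showed the largest fall among the annexins. It encodes annexin A3, which in mouse brain is known mainly from microglia and vessel cells. Anxa3 had a log2 value of 5.84 in tumour 1 and 7.11 in tumour 2, against 9.78 in pool 1 and 9.25 in pool 2. The higher tumour stood 2.13 below the lower pool. The means were 6.48 ± 0.90 in late-onset cells and 9.52 ± 0.38 in early-onset cells (SD, n = 2 each), a log2 fold change of -3.04 (95% interval -4.14 to -1.94), or 8.20-fold lower, with a limma adjusted p of 0.0133. The call was lost without pool 1 (-2.77, adjusted p 0.0715) and without pool 2 (-3.30, 0.0551). Its closest profiles were those of Ctsh, which encodes a lysosomal protease (distance 0.201), the interferon-inducible gene Ifi207 (0.263) and the leukocyte receptor gene Lilr4b (0.289), with log2 fold changes of -3.17, -3.25 and -3.30.

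The myeloid markers moved with Lgals3bp, Anxa3 and Lgals3. The median log2 value of the 19 microglia and macrophage markers was 6.89 in tumour 1 and 7.15 in tumour 2, against 11.11 in pool 1 and 10.91 in pool 2. All 19 had lower values in both tumours than in both pools, as did 30.4% of all genes. The median log2 fold change of that list was -3.90, and the genes of it that fell most were Ly86 (-4.70), Fcrls (-4.64), Mpeg1 (-4.47) and Itgam (-4.23), all expressed by microglia and macrophages. Tumour 2 was above tumour 1 by a log2 difference of 1.27 for Anxa3, 1.10 for Lgals3bp and 0.51 for Lgals3. Of the 19 markers, 16 were also higher in tumour 2, at a median of 0.62. So were 8 of 8 endothelial, 8 of 8 pericyte and fibroblast and 6 of 7 oligodendrocyte markers, and all 10 members. Of T and NK cell markers 2 of 8 were, and of oligodendrocyte progenitor markers 2 of 7. Between the pools, 17 of the 19 myeloid markers were higher in pool 1, but Lgals3bp was higher in pool 2. Of the other white blood cell lists, 1 of 8 T and NK cell markers (Cd4, -0.44) and 1 of 8 B cell and granulocyte markers (Csf3r, -1.84) fell, and the Cd4 call was lost whichever sample was left out. The part of myeloid cells in the fall of these members was not tested.

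**Figure D2:**
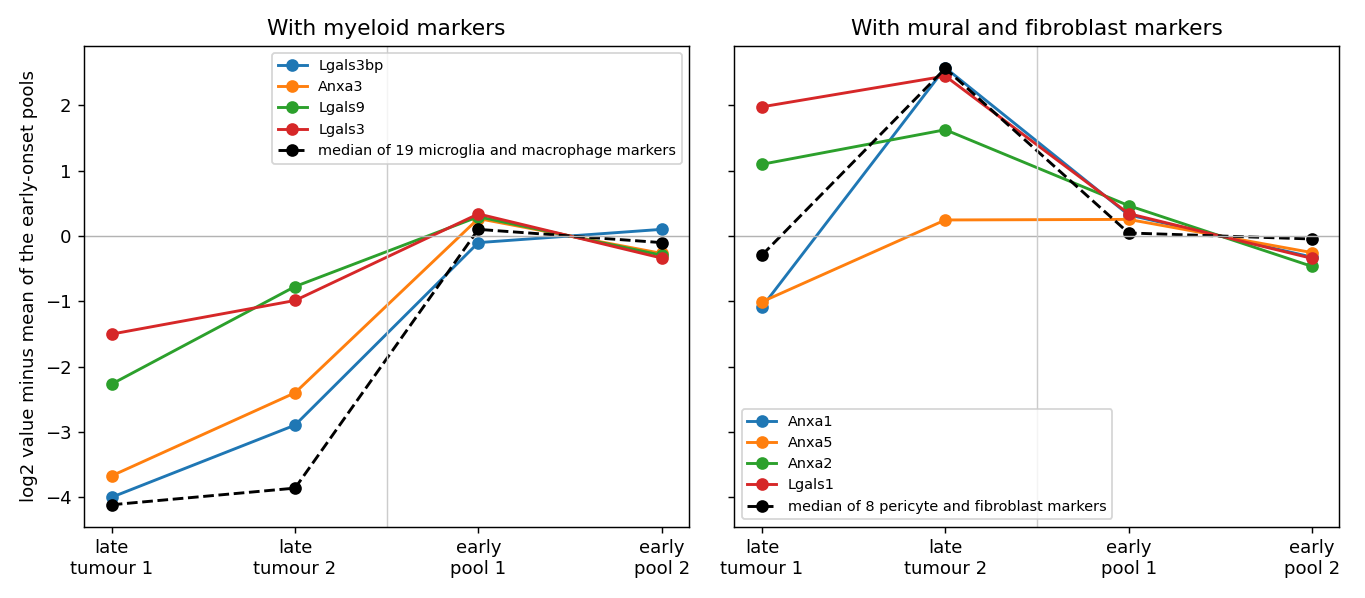
Log2 value on each array minus the mean of the early-onset pools, for family members (coloured) and for the median of a marker list (black, dashed), with late-onset tumours left and early-onset pools right in both panels. Lines join arrays for reading only. On the left Lgals3bp, Anxa3, Lgals9 and Lgals3 lie below 0 in both tumours with the microglia and macrophage median; on the right Anxa1 follows the pericyte and fibroblast median, above 0 in tumour 2 and below it in tumour 1, while Lgals1 and Anxa2 are above 0 in both tumours.

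Anxa2 stood higher in late-onset cells without passing the test. It encodes annexin A2, which forms a surface complex with S100a10 that gathers plasminogen and its activator. Anxa2 had a log2 value of 9.0004 in tumour 1 and 9.53 in tumour 2, against 8.37 in pool 1 and 7.44 in pool 2. The groups did not overlap, but the pools lay 0.93 apart, a difference that 0.487% of all genes exceeded. The log2 fold change was 1.36 (95% interval 0.49 to 2.23, adjusted p 0.0585 by limma). It passed without pool 1 (1.83, adjusted p 0.0409) and after subtraction of each array's median (1.52, 0.0341), and stood at 0.90 without pool 2.

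S100a10, the light chain of the annexin A2 complex, rose. S100a10 had a log2 value of 11.81 in tumour 1 and 12.39 in tumour 2, against 10.53 in pool 1 and 9.28 in pool 2. As for Anxa2, tumour 2 was the highest sample and pool 2 the lowest. S100a10 thus differed by a log2 fold change of 2.19 (SE 0.44, adjusted p 0.0318 by limma), and the call was lost without pool 2 (1.57, adjusted p 0.0644) and without tumour 2 (1.90, 0.0922). S100a10 was the only gene called among 10 measured annexin partners and receptors, against 14.7% of all genes. The median log2 fold change of these 10 was 0.12. Without tumour 1 the median was 0.35 and 3 genes were called, without pool 2 it was 0.07 and 0 were, and after median subtraction it was 0.28 and 2 were. S100a11, the partner of annexin A1, and Plat, which encodes tissue plasminogen activator, were picked out after their values were seen. They stood at 1.46 (adjusted p 0.0952) and 0.73 (0.0514), with no overlap between the groups. S100a11 passed without tumour 1 (2.17, adjusted p 0.00443) or tumour 2 (0.75, 0.0402), and Plat passed without tumour 1 (0.96, 0.0146) and in 5 further alternative fits.

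Anxa1 separated the tumours from each other. It encodes annexin A1, a glucocorticoid-induced protein that limits inflammation through formyl peptide receptors. Anxa1 had a log2 value of 4.86 in tumour 1 and 8.52 in tumour 2, against 6.27 in pool 1 and 5.62 in pool 2. The tumours lay on either side of the pools, and 4 of 19937 genes differed more between the tumours than the log2 difference of 3.66 seen for Anxa1. The log2 fold change of 0.74 had a 95% interval from -2.17 to 3.66 (adjusted p 0.731 by limma). Without tumour 1 it was 2.58 (adjusted p 0.0114), and without tumour 2 it was -1.09 (0.0853), so its direction was set by which tumour was used, and without pool 2 it was 0.42. Between the tumours, pericyte and fibroblast markers moved the same way. All 8 were higher in tumour 2 than in tumour 1, at a median log2 difference of 2.87. Rgs5 of that list differed by only 0.13, and it fell in late-onset cells (-0.56). Dcn, a fibroblast proteoglycan gene, was picked out after its values were seen and differed most of the list. It stood at 4.96 in tumour 1 and 9.23 in tumour 2. In pool 1 and pool 2 Dcn read 5.84 and 6.34, the reverse of the Anxa1 order. The part of such cells in the Anxa1 value of tumour 2 was not tested.

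Anxa5 and Anxa4 also differed between the tumours. Anxa5 encodes annexin A5, the phosphatidylserine binder used as a probe of dying cells. Anxa5 had a log2 value of 9.15 in tumour 1 and 10.40 in tumour 2, against 10.41 in pool 1 and 9.90 in pool 2, and the groups overlapped. The log2 fold change was -0.38 (95% interval -1.46 to 0.70, adjusted p 0.621 by limma), at 0.25 without tumour 1, -1.01 without tumour 2, -0.13 without pool 1 and -0.64 without pool 2. Anxa4 encodes annexin A4, which is best known from epithelia. Anxa4 had a log2 value of 6.25 in tumour 1 and 7.21 in tumour 2, against 7.76 in pool 1 and 7.52 in pool 2. Both tumours lay below both pools, tumour 2 only by 0.31. The log2 fold change of -0.91 did not pass (adjusted p 0.13), but did without tumour 2 (-1.39, adjusted p 0.0123), and it was -0.43 without tumour 1.

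Anxa6 had the tightest replicates of the 10. It encodes annexin A6, the largest annexin, which links membranes to the cortical cytoskeleton. Anxa6 had a log2 value of 11.75 in tumour 1 and 11.81 in tumour 2, against 11.22 in pool 1 and 11.25 in pool 2. The tumours lay 0.05 apart and the pools 0.03 apart, with a gap of 0.51 between the groups. Anxa6 thus differed by a log2 fold change of 0.55 (95% interval 0.31 to 0.79, adjusted p 0.0226 by limma), a 1.46-fold higher level. A second, dimmer probe set of Anxa6 read 6.95 and 6.44 in the tumours, against 6.50 and 6.49 in the pools, with a log2 fold change of 0.20 (adjusted p 0.534 over all single-gene probe sets), and the mean of both probe sets gave 0.37 (0.0981). The call was also lost without pool 1 (0.53, adjusted p 0.131), without pool 2 (0.56, 0.13) and without tumour 2 (0.52, 0.0639).

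All 10 genes had a higher value in tumour 2 than in tumour 1, against 50.5% of all genes. The median difference was 0.75, and it ran from 0.05 for Anxa6 to 3.66 for Anxa1. Over all genes the median absolute difference between the tumours was 0.14. Of the 10 genes, 8 were higher in pool 1 than in pool 2, against 46.3% of all genes, and the exceptions were Lgals3bp and Anxa6. Endothelial markers split the samples in the same order: all 8 were higher in tumour 2 than in tumour 1 (median 0.98) and higher in pool 1 than in pool 2 (median 0.73 on the log2 scale). Microglia and macrophage markers ran the same way in most genes, with 16 of 19 higher in tumour 2 than in tumour 1 (median 0.62) and 17 of 19 higher in pool 1 than in pool 2 (median 0.22). The other marker lists did not run this way in both comparisons. Higher in tumour 2 were 8 of 8 pericyte and fibroblast, 6 of 8 astrocyte, 6 of 7 oligodendrocyte and 5 of 8 neuron markers. Higher in pool 1 were 4, 0, 0 and 2 of them. Of T and NK cell markers 2 of 8 were higher in each case, of B cell and granulocyte markers 3 of 8, and of oligodendrocyte progenitor markers 2 of 7. The part of vessel, myeloid or other cells in these differences was not tested.

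Of the remaining 13 measured genes of both families, Lgalsl fell and 12 did not pass, while 8.12% of all genes fell and 14.7% passed in either direction. Lgalsl encodes a galectin-related protein that lacks the sugar binding of true galectins. Lgalsl had a log2 value of 10.52 in tumour 1 and 10.54 in tumour 2, against 11.44 in pool 1 and 11.29 in pool 2, with a gap of 0.75 between the groups. Its log2 fold change was -0.84 (SE 0.10, adjusted p 0.00958 by limma), and the call was lost without pool 1 (-0.77, adjusted p 0.0645) and without pool 2 (-0.91, 0.0502). Lgals9 encodes galectin-9, a ligand of the checkpoint receptor Havcr2. Lgals9 had a log2 value of 6.99 in tumour 1 and 8.48 in tumour 2, against 9.55 in pool 1 and 8.96 in pool 2. Both tumours lay below both pools, yet the spread between the tumours left its log2 fold change of -1.52 short of the threshold (adjusted p 0.113), and it passed without tumour 2 (-2.27, 0.0138) and stood at -0.77 without tumour 1 (0.133).

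Among the other annexins Anxa7 stood at -0.79 (adjusted p 0.064), at -1.09 without tumour 2 (0.0128) and at -0.49 without tumour 1 (0.0671), and Anxa9 stood at -0.40 (0.0759). Anxa8, Anxa10, Anxa11 and Anxa13 stood at -0.04, 0.14, -0.04 and 0.12, with overlapping groups, and each changed sign in some alternative fit. Among the other galectins Lgals2, a lectin of the gut, stood at 0.55 (adjusted p 0.107), at 0.80 without tumour 1 (0.0224) and at 0.30 without tumour 2 (0.194), and passed after median subtraction (0.71, 0.0376). Lgals4, Lgals7, Lgals12 and the lens gene Grifin stood at 0.00, 0.01, -0.06 and -0.18, and the first 3 of these changed sign in some alternative fit. Lgals4 has a near-identical mouse copy, and how its signal divides between the copies was not tested.

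**Figure D3:**
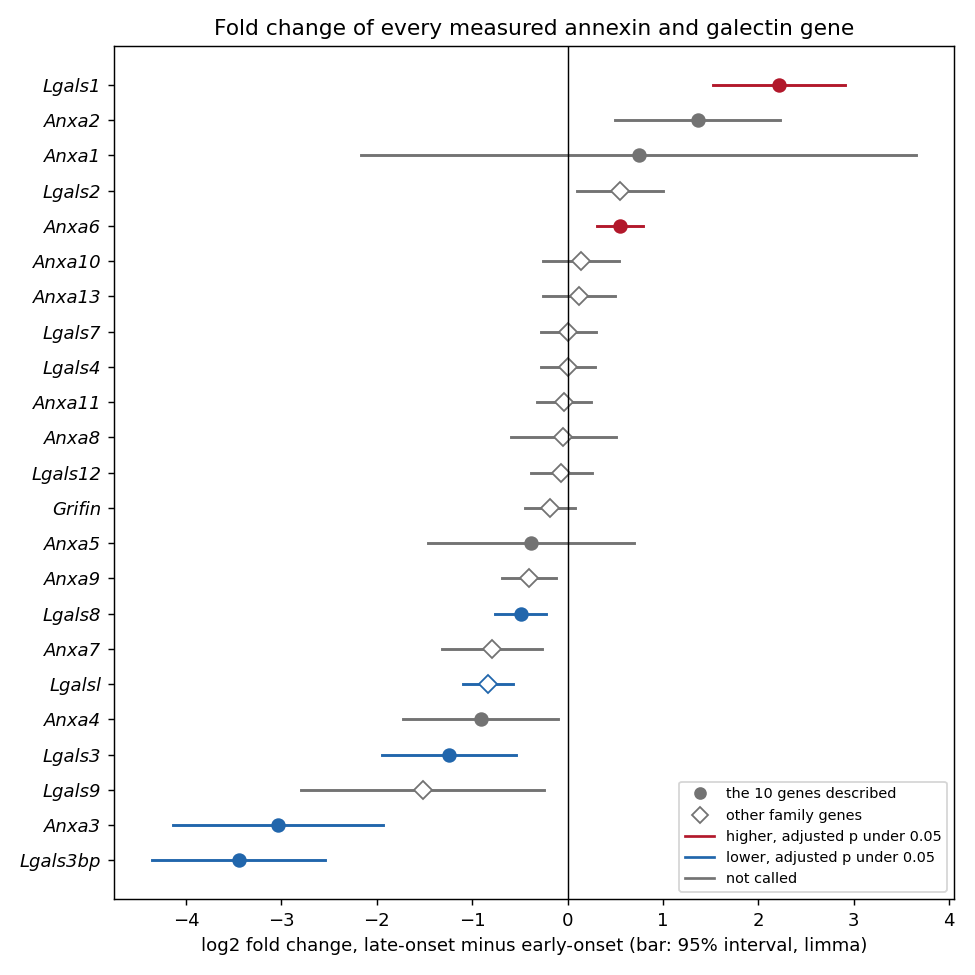
Log2 fold change, late-onset minus early-onset, with its 95% interval from limma for the 23 measured annexin and galectin genes, sorted from highest to lowest. Circles are the 10 genes described first, open diamonds the other 13, and colour marks an adjusted p under 0.05. Lgals1 is the highest at 2.21 and Lgals3bp the lowest at -3.45, and the Anxa1 interval, from -2.17 to 3.66, is the widest.

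Genes of surface and vesicle proteins known to bind galectins moved both ways. Of 18 counter-receptor genes, 2 rose and 7 fell, while 6.59% of all genes rose and 8.12% fell. The median log2 fold change of the 18 was -0.31. The count that rose was 1 without pool 1 or without pool 2, 3 without tumour 1 and 4 after median subtraction. Mcam, an endothelial and melanoma adhesion molecule that binds galectins, rose by 2.26 (adjusted p 0.0013 by limma). Mcam had a log2 value of 12.11 in tumour 1 and 12.09 in tumour 2, against 9.84 in both pools, a gap of 2.24 between groups whose own samples lay 0.02 and 0.01 apart. Itgb1, the integrin beta 1 chain to which galectin-1 binds, was picked out after its value was seen and rose by 0.67 (adjusted p 0.0177), and the call was lost without pool 1 (0.74, adjusted p 0.073) and without pool 2 (0.60, 0.12). Those that fell most were Itgam (-4.23), the phagocytic receptor gene Mertk (-3.95), Ptprc (-3.30), Lag3 (-2.59) and Havcr2 (-2.51), which leukocytes or microglia express. Itgam and Ptprc are also on the microglia and macrophage list, as is Trem2, which fell too. The remaining gene that fell was Nrp1 (-1.45, adjusted p 0.0399 by limma), which is not on that list. It stood at -0.97 without tumour 1 and -1.93 without tumour 2. Cd44, a hyaluronan receptor that was likewise picked out afterwards, had a log2 fold change of 1.42 (adjusted p 0.0988). It passed without tumour 1 (1.95, adjusted p 0.0417) and stood at 0.88 without tumour 2 (0.232) and 0.96 without pool 2 (0.357).

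Most enzymes that build or cap galectin ligands did not pass the test, and nor did most of all genes. Of 11 genes of glycan synthesis, 2 fell and 0 rose, while 8.12% of all genes fell and 6.59% rose. The median log2 fold change of the 11 was -0.07. It was -0.16 without pool 2, -0.11 without tumour 2 and -0.02 without tumour 1. Gcnt1, which starts branched O-glycans, fell by 1.80 (adjusted p 0.00651), and the galactosyltransferase gene B4galt1 fell by 1.15 (0.00914, and 0.0516 without pool 1). Mgat5, whose N-glycan branches galectin-3 prefers, stood at -0.17 (95% interval -0.55 to 0.22, adjusted p 0.527), and St6gal1, whose sialic acid caps block galectin-1, at -0.31 (adjusted p 0.175). These last 2 genes were picked out for their roles after their values were seen.

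Genes that control the lipid annexins bind moved both ways. Of 7 genes of phosphatidylserine exposure, 2 rose and 1 fell, while 6.59% of all genes rose and 8.12% fell. The median log2 fold change of the 7 was 0.06 (0.10 without pool 1 and 0.09 without tumour 2). Without pool 1, 0 rose and 0 fell, and without pool 2, 0 rose. Plscr1, an interferon-inducible scramblase-like gene, rose by 1.17 (adjusted p 0.0117), the calcium-activated scramblase gene Ano6 rose by 0.65 (0.0449), and the flippase gene Atp8a1, whose product returns the lipid to the inner leaflet, fell by 0.88 (0.00863). The Plscr1 call was lost without pool 1 (adjusted p 0.0698) and without pool 2 (0.055), the Atp8a1 call without pool 1 (0.0588), and the Ano6 call whichever single sample was left out (0.06 to 0.187). Ano6 passed in 5 of 13 alternative fits, and also missed the threshold after quantile normalization (adjusted p 0.0523), after cyclic loess (0.0599) and with weights per array (0.051). Of 10 genes of membrane repair and ESCRT-III, the complex that sheds damaged membrane, 0 passed by limma. An unadjusted p under 0.05 was seen for 5967 of all 19937 genes, and for 3 of these 10. The smallest adjusted p-values were those of Tsg101 (0.38, adjusted p 0.0722, and 0.0229 after median subtraction at 0.54) and Vps4a (-0.32, 0.124).

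**Figure D4:**
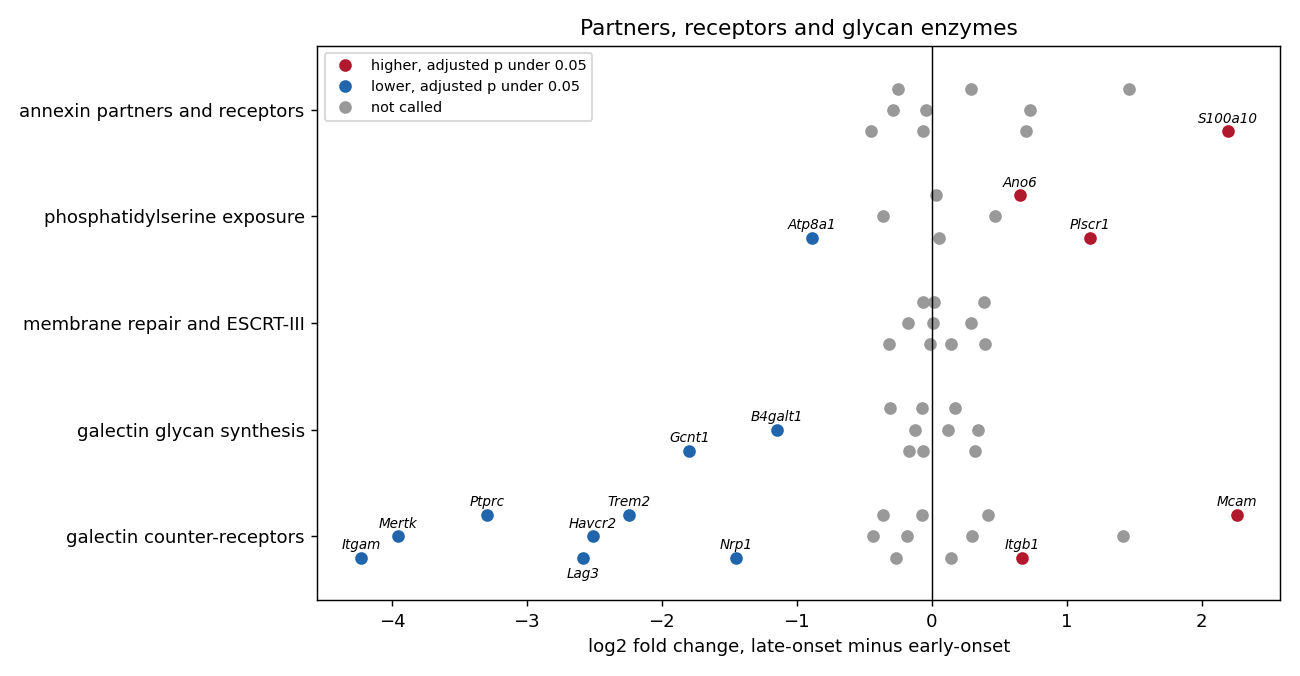
Log2 fold change, late-onset minus early-onset, of every measured gene in the 5 lists of partners, receptors and enzymes. Each point is a gene, spread vertically within its list only for legibility, and coloured and named genes have an adjusted p under 0.05. The counter-receptor list spreads widest, from -4.23 for Itgam to 2.26 for Mcam, while the membrane repair genes lie between -0.32 for Vps4a and 0.39 for Vps4b.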

How the data were processed

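Sorted EGFP-positive glioma cells were measured on 4 Affymetrix mouse arrays, 2 late-onset and 2 early-onset. The deposited values are log2 probe set summaries made by the authors. The submitters' processing notes name RMA and affy version 3.4.2 and give no settings. RMA subtracts background and forces arrays onto a common distribution, which hides shifts shared by most transcripts and understates folds of dim genes. The number of arrays limits the precision.

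Of 34760 probe sets, 21640 had a single annotated gene symbol, 1321 several and 11799 none. Only the first were used, which gave 19937 genes with the brightest probe set of each. All member probe sets matched the mouse RefSeq table by Entrez identifier. Late-onset minus early-onset was fitted with limma 3.58.1 in R 4.3.3 (lmFit, eBayes, no trend, not robust), with Benjamini-Hochberg adjustment over all genes and a threshold of 0.05. Residual degrees of freedom were 2, with a prior of 3.27. The fit was also run on data simulated as independent normal values under its own variance model. That run does not test whether the real data meet those assumptions.

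The members and lists were chosen with earlier results of these data known, and no list test was run. Text names all family genes, up to 6 called genes of each related list and up to 4 of each marker list by absolute log2 fold change (the 2 with the smallest p in a related list with none called), and the 3 closest profiles of each member called with an absolute log2 fold change of at least 1. Alternatives covered the variance model, dim genes, scaling, probe sets, weights per array, a replicate block, thresholds and each sample left out. Changes of the variance model, dim genes, weights or block left the log2 fold change of each member unchanged. Those fits therefore bear on the call and not on the direction. Probe sets could matter only for a gene with more than 1. Some listed genes were not analysed here.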

Additional observations from a re-analysis of the deposited data

How the results depend on the processing

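Of the 10 members, Lgals1 and Lgals3bp kept direction and call in all 13 alternative fits, and Anxa3 lost its call only without a pool. With each array's median subtracted, 2839 genes were higher and 1210 lower (70.1% of calls higher, against 44.8% on the deposited scale), 12 related genes were higher instead of 5, Anxa2 passed (1.52) and Lgals8 did not (-0.33). The replicate numbers were not shown to pair samples: deviations of same-numbered samples correlated at -0.04. With the replicate block 744 genes were higher, 1 member was higher and 2 lower, and 3 related genes were higher, and calls were lost for Anxa6 (0.55, adjusted p 0.0568), Lgals3 (-1.24, 0.103) and Lgals8 (-0.49, 0.0884), and among related genes for S100a10 (2.19, 0.077), Ano6 (0.65, 0.0884) and Nrp1 (-1.45, 0.0749). With the mean of a gene's probe sets 1 member was higher, since Anxa6 stood at 0.37. At a threshold of 0.1, 2169 genes and 10 related genes were higher. At 0.01, 290 genes were higher and 534 lower, 1 member was higher and 1 lower, and 1 related gene was higher.

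Leaving out each sample in turn gave 291 to 1212 genes higher and 559 to 1365 lower, 1 to 3 members higher and 1 to 4 lower, and 1 to 8 related genes higher and 7 to 13 lower. Without pool 2 the counts were 291 and 559, without pool 1 they were 330 and 613, and the remaining member lower in each case was Lgals3bp. The lone sample was then assumed to vary like the other group. Log2 fold changes ran from -1.09 to 2.58 for Anxa1, 0.90 to 1.83 for Anxa2, -3.67 to -2.40 for Anxa3, -1.39 to -0.43 for Anxa4, -1.01 to 0.25 for Anxa5, 0.52 to 0.57 for Anxa6, -1.58 to -0.91 for Lgals3 and -0.56 to -0.43 for Lgals8. Uncalled genes near 0 changed sign: Anxa8 (-0.35 to 0.26), Anxa10 (-0.00748 to 0.287), Anxa11 (-0.133 to 0.0586), Anxa13 (-0.0621 to 0.305), Lgals4 (-0.0719 to 0.0781), Lgals7 (-0.0899 to 0.102) and Lgals12 (-0.20 to 0.0708). By scaling, Anxa8 stood at 0.0219 (quantile), 0.12 (median) and 0.00645 (cyclic loess), Anxa11 at 0.15, 0.12 and 0.0302, and Lgals12 at 0.00401 (quantile) and 0.0947 (median). Causes were not tested. Only 2 arrays per group limit every value.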

Other observations

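The gap between Lgals1 and Lgals3 within an array was nearly constant inside each group, a pattern noticed after the values were seen. Lgals1 minus Lgals3 was 3.96 in tumour 1 and 3.92 in tumour 2, against 0.48 in pool 1 and 0.47 in pool 2, all on the log2 scale. The gap averaged 3.94 ± 0.03 in late-onset cells and 0.48 ± 0.01 in early-onset cells (SD, n = 2 each), a difference of 3.46 between groups. No test was made, because the pair was picked from these values. Each gene alone varied far more within a group, by 0.47 and 0.51 between the tumours and by 0.69 and 0.68 between the pools. The sizes 3.96 and 0.48 also carry the brightness of the probe sets, so only the difference between groups can be read.

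The other marker lists gave these values, to be read beside the 6.59% of all genes that rose and the 8.12% that fell. Of 8 astrocyte markers 4 fell, at a median log2 fold change of -0.92, led by Slc1a2 (-1.93), Gjb6 (-0.95), Slc1a3 (-0.89) and Aldoc (-0.63), and 2 fell without pool 1, 1 without pool 2 and 2 without tumour 1. Of 8 neuron markers 5 fell and 1 rose, Tubb3 (1.86), and Snap25 (-1.85) fell most. The count of neuron markers that fell was 1 without pool 1, 0 without pool 2 and 3 without tumour 1. Of 7 oligodendrocyte markers 2 fell, the myelin genes Mobp (-2.62) and Mbp (-1.45), and the myelination factor gene Myrf rose (1.39). Without pool 1 or without pool 2, 0 oligodendrocyte markers fell, without tumour 2 there were 4, and without tumour 1, 0 rose. Of 8 endothelial markers 0 passed by limma, and the groups overlapped for each of them, while they did not overlap for 58.9% of all genes. An unadjusted p under 0.05 was seen for 5967 of all 19937 genes, and for 0 of these 8 markers. Their median of -0.39 was -0.04 without pool 1, -0.74 without pool 2, -0.02 without tumour 1 and -0.77 without tumour 2, where 1 fell. Of 8 pericyte and fibroblast markers 7 had positive log2 fold changes, at a median of 1.16, and the only call was that of Rgs5, which fell (-0.56). That median was 2.72 without tumour 1, where 7 rose and 0 fell, and -0.21 without tumour 2, and 0 fell without pool 1 or without pool 2. Of 7 oligodendrocyte progenitor markers 1 fell, Pdgfra (-0.45), and with a sample left out 1 fell without tumour 1 and 0 in the other cases.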
